A study of Caenorhabditis elegans with 2 samples.

Results

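The 33 genes described here build and run the sensory cilium of Caenorhabditis elegans, and the data show where the zinc-finger protein ZTF-16 was found on chromatin around them. The genes are the regulator daf-19, genes for intraflagellar transport, the BBSome and the transition zone, the ciliary kinase dyf-5 and the GTPase arl-13. They were chosen by name and by no rule on their values, but with earlier results of these data known. They are 33 of the 19973 protein-coding genes on the 6 nuclear chromosomes, and all 33 were found in the annotation. Of these, 2 had a ZTF-16 summit of the strictest peak list in the promoter. They were daf-19, the regulator of the ciliary genes, and dyf-3, a gene for intraflagellar transport. No such summit lay in the body of any of the 33. At the other 31 genes the lists held weaker summits or none in the promoter window.

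A cilium is a thin extension of the cell with a microtubule core, and in the worm only sensory neurons carry one. Proteins cannot be made inside it, so trains of intraflagellar transport (IFT) proteins carry cargo in and out. Kinesin motors pull the trains to the tip with the IFT-B complex, dynein returns them with the IFT-A complex, and the BBSome holds motors and membrane cargo to the trains. The transition zone at the base, with its MKS and NPHP proteins, works as a gate. DAF-19 is the worm's RFX transcription factor, and it switches on many of these genes by binding a promoter motif called the X-box.

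ZTF-16 is a C2H2 zinc-finger protein of the Hunchback and Ikaros-like kind. The chromatin came from 2 biological replicates of 1 group, and no second condition was measured, so nothing here compares conditions. The worms were strain OP558, which carries the allele unc-119(tm4063) on chromosome III and the transgene wgIs558, a stable insertion whose product is ZTF-16 joined at its C-terminal end to GFP and FLAG. Whole late embryos of both sexes, all cell types together, were collected 5 hours after synchronisation by egg bleaching, and an antibody against GFP was used for chromatin immunoprecipitation and sequencing (ChIP-seq). The ciliated neurons are a minority of the cells in a whole embryo, and sites used in those cells alone cannot be told apart here from weaker sites used in all cells. No gene expression was measured, so the cells could not be checked by markers.

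The deposited lists give each peak's summit and a signal value from the peak caller, which can be compared only within a list. The relaxed lists hold 21235 peaks for replicate 1, 18242 for replicate 2 and 14968 for both replicates pooled, and they are meant to reach down into background. The IDR-thresholded list, made by a procedure that compares peak ranks between replicates (irreproducible discovery rate), holds the 822 pooled peaks with the highest signal, at 77.4 and above. Of these, 818 had a summit in both replicate lists. The lists carry no read numbers, so the depth is unknown and a missing summit does not show that the protein was absent. A promoter window here starts 1000 bp before a gene's annotated 5' end and ends 200 bp after it, and the gene body follows up to the 3' end. Many worm messages are trans-spliced, so an annotated 5' end can lie downstream of the true start. Intervals are Wilson 95% intervals, which cover counting error over genes only.

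In the promoter windows, 2 of the 33 genes (6.06%, interval 1.68% to 19.6%) had an IDR-thresholded summit, beside 3.29% of all protein-coding genes. A pooled relaxed summit was present at 9 of 33 (27.3%), beside 23.5% of all genes. Replicate 1 had a summit at 11 genes (33.3%), beside 29.4%, and replicate 2 at 6 (18.2%), beside 26.2%. Only 3 genes (9.09%), daf-19, dyf-3 and ift-81, had summits of both replicates within 200 bp of each other, beside 12.8% of all genes. At a q-value of 0.05 or less, 2 genes (6.06%) kept a pooled promoter summit, daf-19 and dyf-3, beside 5.37% of all genes. All of these shares have intervals that hold the share over all genes, so with 33 genes the ciliary promoters could not be told apart from the background in any list.

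**Figure D1:**
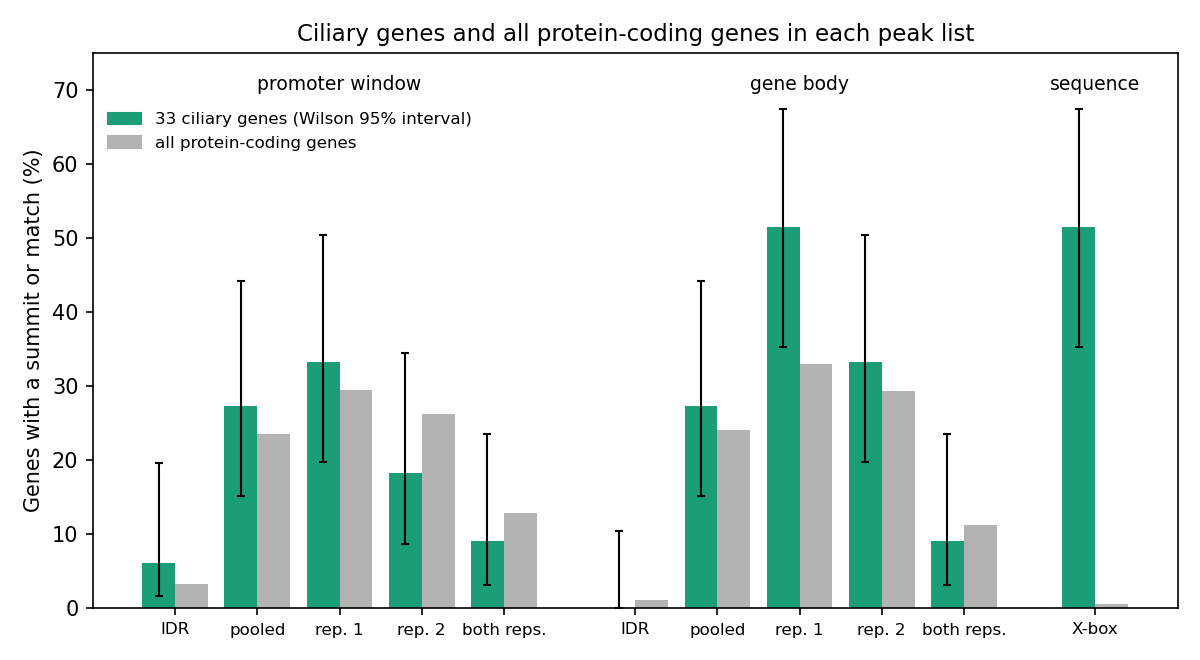
The bars give the percentage of genes with a summit in the promoter window or gene body in each ce11 peak list, or with an X-box match in the promoter sequence, for the 33 ciliary genes (green, with Wilson 95% intervals) and all 19973 protein-coding genes (grey). The X-box share, 51.5% against 0.466%, is far above the background, and the promoter shares, from 6.06% to 33.3%, are near it.

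The strongest summit at any of the 33 genes lay upstream of daf-19, the gene for the RFX factor itself (WBGene00000914, chrII:10157520-10169346, minus strand, build ce11). In the pooled list the summit stood 236 bp upstream of the 5' end, between genes, with a signal of 97.9, which ranked 509 of 14968. In replicate 1 the summit lay 220 bp upstream with a signal of 35.5, and in replicate 2 it lay 248 bp upstream with a signal of 70.1. It ranked 1310 of 21235 in replicate 1 and 230 of 18242 in replicate 2, so it was among the strong peaks of both but much nearer the top in replicate 2. Replicate 1 also listed weaker summits 465 bp upstream and 86 bp downstream of the 5' end, at ranks 9045 and 9083, without a partner in replicate 2. No other gene's promoter window held the pooled summit. The 300 bases upstream of the 5' end, chrII:10169347-10169646 read on the minus strand from the RefSeq sequence of WBcel235 (the same assembly as ce11), are shown because they hold both the summit and an X-box, which is in capitals.
daf-19 upstream: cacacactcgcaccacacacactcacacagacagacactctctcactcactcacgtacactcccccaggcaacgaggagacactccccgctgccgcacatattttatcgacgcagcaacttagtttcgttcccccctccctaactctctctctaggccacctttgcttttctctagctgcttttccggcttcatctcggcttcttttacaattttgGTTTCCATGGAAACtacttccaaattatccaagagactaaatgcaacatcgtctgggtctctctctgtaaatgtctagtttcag
The X-box lies near the 3' end of this stretch, and the summit lies 159 bp upstream of it.

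The daf-19 gene makes several transcripts, and the place of the summit among them bears on which form of the protein it lies beside. The long forms a and b start at the gene's 5' end, and the shorter forms d, e and c start 4894, 5770 and 7673 bp further in. The c form is the one known to turn on ciliary genes in sensory neurons, whereas the long forms are known from neurons without cilia. The IDR-thresholded summit lay 236 bp upstream of the start of form a and 7909 bp upstream of the start of form c. The nearest pooled summit to the start of form c lay 63 bp upstream of it, in an intron, with a signal of 28.7. That summit ranked 14583 of 14968 in the pooled list and 11318 in replicate 1, and had no partner in replicate 2, so it was close to the floor of the pooled list and near the middle of replicate 1's. Another weak summit, 353 bp upstream of the start of form e, had a pooled signal of 30.1 and a partner only in replicate 2, at rank 1875.

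The second gene was dyf-3 (WBGene00001119, chrIV:3396581-3399231, minus strand), which encodes an IFT-B protein named for the dye-filling defect of its mutants. Its pooled summit lay 66 bp upstream of the 5' end with a signal of 90.8 and ranked 600 of 14968. Replicate 1 placed the summit 71 bp upstream with a signal of 34.4, at rank 1449, and replicate 2 placed it 70 bp upstream with a signal of 45.8, at rank 624. The positions agree within 5 bp over the 3 relaxed lists, and again the rank was higher in replicate 2. The same summit lay 375 bp upstream of pdhb-1, a gene for a subunit of the mitochondrial pyruvate dehydrogenase that is transcribed the other way, so it can belong to either promoter. The 101 bases centred on the summit, chrIV:3399247-3399347 on the minus strand, are shown with each GCGC in capitals.
dyf-3 summit: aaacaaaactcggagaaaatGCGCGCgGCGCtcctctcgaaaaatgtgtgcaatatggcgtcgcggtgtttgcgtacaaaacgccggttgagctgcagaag

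With each replicate cut to its 822 strongest peaks, these 2 genes were called in replicate 2 alone. In replicate 1 both summits still had a q-value from the peak caller of 0.05 or less. Their −log10 q-values there were 1.52 at daf-19 and 1.39 at dyf-3, and 1502 peaks of replicate 1 were within that limit. Among the 822 strongest peaks of replicate 2 alone, daf-19 and dyf-3 were again the genes with a promoter summit, beside 3.18% of all genes. Among the 822 strongest of replicate 1 alone, 0 of the 33 genes had one, beside 3.21% of all genes. Neither summit was in the stronger 411 of the IDR-thresholded peaks. Of the 822 IDR-thresholded peaks, 34.1% had ranks more than 2-fold apart between the replicates, and those at daf-19 and dyf-3 were both among them.

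**Figure D2:**
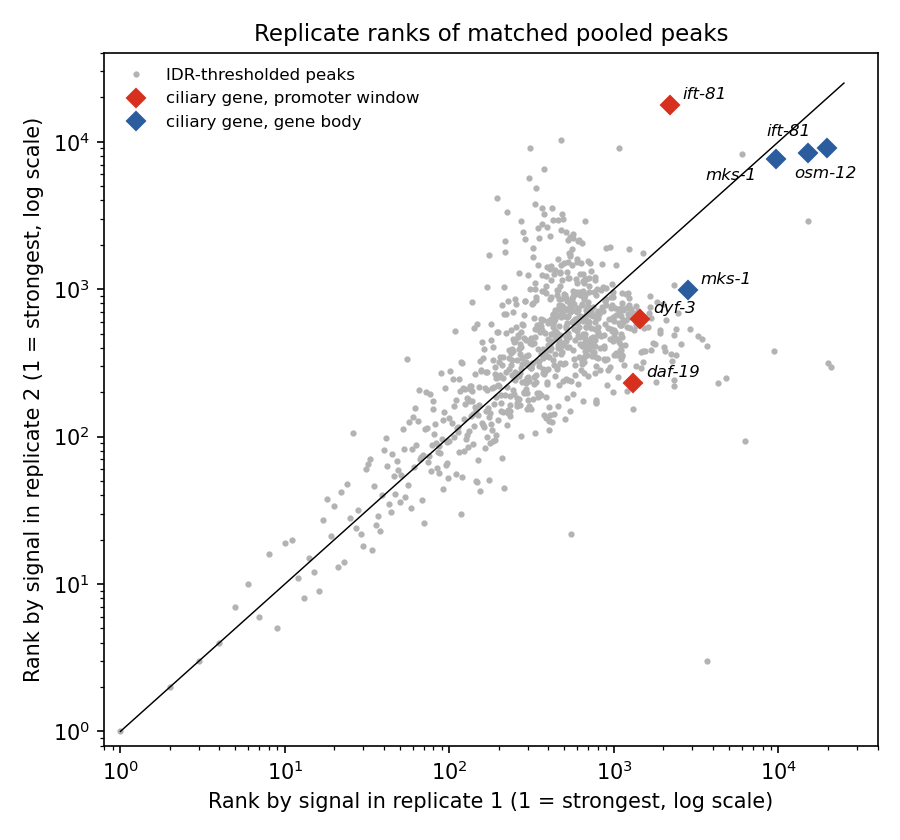
Each point is a pooled peak placed by its rank in replicate 1 (x) and replicate 2 (y), both on log scales with 1 the strongest: IDR-thresholded peaks in grey, peaks in promoter windows of ciliary genes in red and in their bodies in blue, for the peaks matched in both replicates. The daf-19 and dyf-3 peaks lie below the diagonal, nearer the top in replicate 2, and the ift-81 promoter peak lies far above it, at ranks 2192 and 17809.

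The other IFT-B genes had weak promoter summits or none. The strongest was at ift-81, whose protein pairs with IFT-74 in the core of the complex. Its pooled summit lay 251 bp upstream with a signal of 48.8, at rank 2685, inside an intron of the overlapping gene ags-3. It ranked 2192 in replicate 1 with a signal of 30.1 and 17809 of 18242 in replicate 2 with a signal of 15.1, so in replicate 2 it was near the list's floor of 15.0. The 101 bases centred on this summit (chrX:5298260-5298360, plus strand) are shown for comparison with dyf-3, with the GCGC in capitals.
ift-81 summit: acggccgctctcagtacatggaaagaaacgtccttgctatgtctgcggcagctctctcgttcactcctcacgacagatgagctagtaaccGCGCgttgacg
At dyf-13, an IFT-B gene, a pooled summit 507 bp upstream had a signal of 29.9, at rank 12998. That peak lay within 200 bp of a small non-coding RNA gene and had a partner only in replicate 1, at rank 14951. At dyf-6, likewise an IFT-B gene, replicate 1 alone had summits 45 and 352 bp upstream, at ranks 4086 and 19196. At osm-1, another IFT-B gene, replicate 2 alone had a summit 200 bp downstream, at the edge of the window, at rank 12699. The IFT-B genes che-2, che-13, osm-5, osm-6, dyf-1, ift-74 and ifta-2 had no promoter summit in any list.

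None of the 3 motor genes had a promoter summit in any list. These are osm-3, the kinesin of the outer part of the cilium, che-3, the dynein heavy chain, and xbx-1, a dynein light intermediate chain. Of the 3 IFT-A genes, only dyf-2 had promoter summits. The pooled one lay 205 bp upstream with a signal of 33.7, at rank 9126, and had a partner in replicate 1 at rank 10077 and none in replicate 2. It also lay 619 bp upstream of cul-2, a cullin gene on the other side. The IFT-A genes che-11 and ifta-1 had no summit in the promoter or the body in any list.

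Of the 6 BBSome genes, bbs-5 and osm-12 had pooled promoter summits and bbs-1, bbs-2, bbs-8 and bbs-9 had none in any list. The bbs-5 summit lay 60 bp downstream of the 5' end, in an untranslated exon, with a signal of 38.3 at rank 6031. It ranked 2713 in replicate 1 and was absent from the list of replicate 2. The osm-12 summit lay 91 bp downstream, in a coding exon, with a signal of 31.2 at rank 11514, and replicate 1 alone had a partner, at rank 8348. Both BBSome summits were thus seen in replicate 1 and not in replicate 2.

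Among the 6 transition zone genes, the pooled list held a promoter summit at mks-1, 880 bp upstream, with a signal of 37.2 at rank 6636. Replicate 1 had it at rank 2560 and replicate 2 did not list it. Replicate 2 alone had a summit 264 bp upstream of mks-5, the gene for the scaffold that organises the transition zone, at rank 3168. Replicate 1 alone had a summit 49 bp downstream of the 5' end of mks-6, at rank 13431. No promoter summit was listed at mks-3, nphp-1 or nphp-4. Of the remaining genes, arl-13, whose GTPase marks the ciliary membrane, had a pooled summit 48 bp downstream in an untranslated exon, with a signal of 36.5 at rank 7098 and a partner in replicate 1 alone at rank 4509. At dyf-5, the kinase that limits the length of cilia, replicate 2 alone had a summit 140 bp downstream, at rank 17867, near the end of its list.

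**Figure D3:**
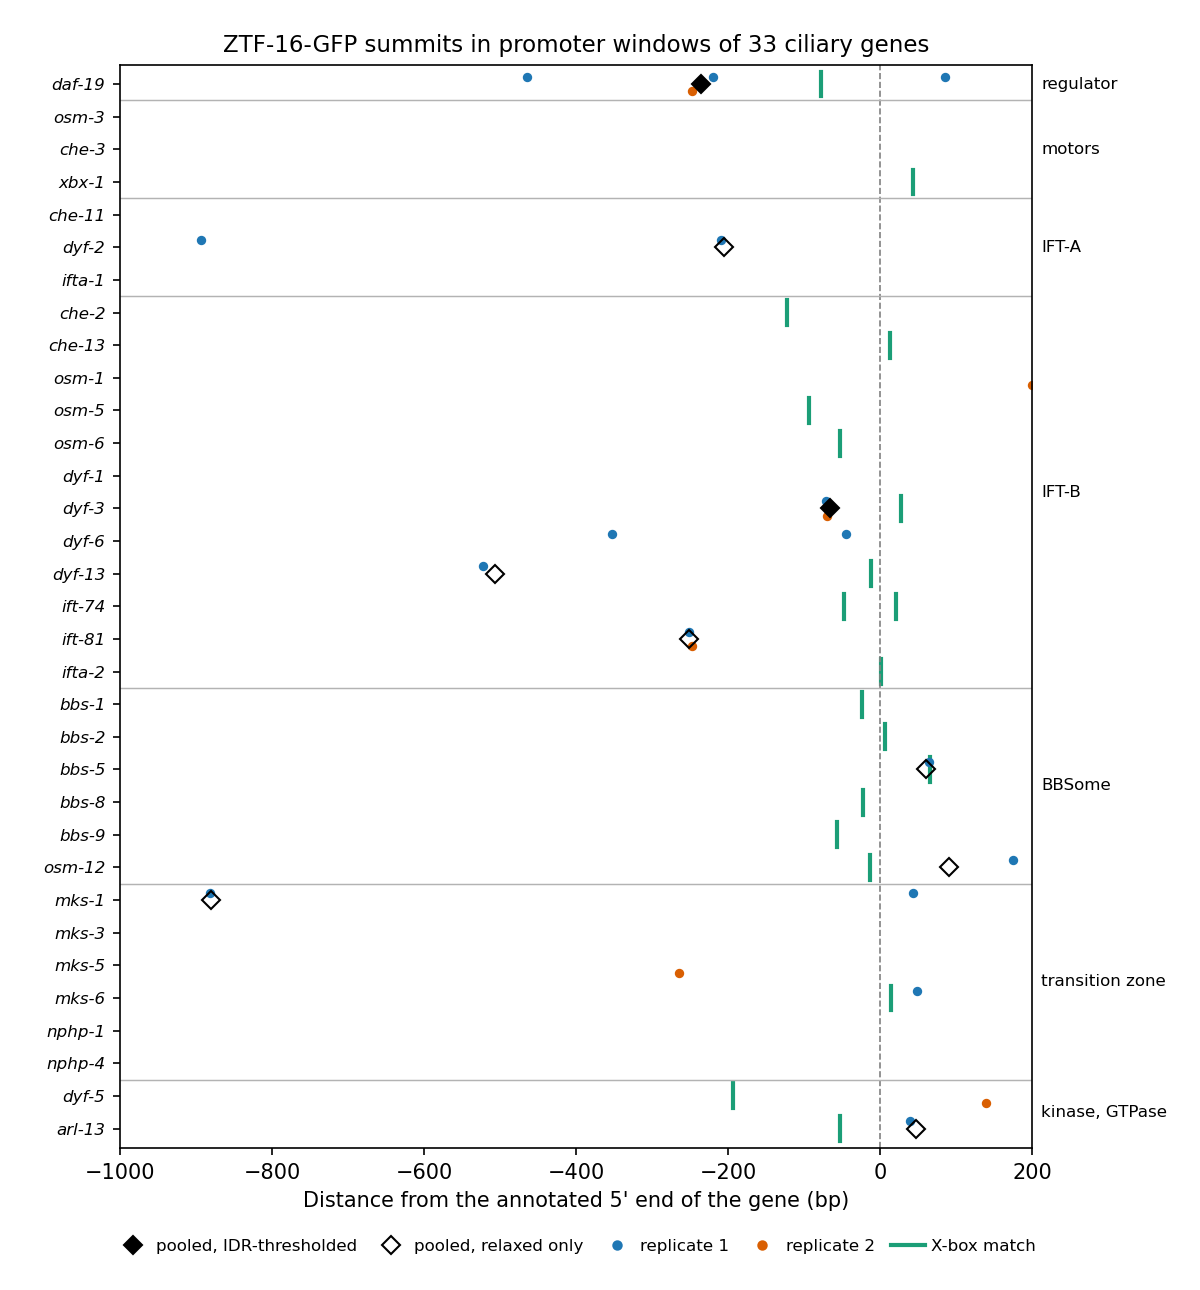
Each row is a ciliary gene and the x axis is the distance from its annotated 5' end in bp, with diamonds for pooled summits (filled when IDR-thresholded), blue and orange points for replicate 1 and replicate 2, and green bars for X-box matches. Filled diamonds stand at daf-19 and dyf-3 alone, 9 genes have a diamond, and the green bars cluster near the 5' ends whether or not a summit is present.

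All 9 pooled promoter summits had a partner within 200 bp in replicate 1, and 3 of them had one in replicate 2 as well. Over all pooled peaks 72.4% had a partner in replicate 1, 66.9% in replicate 2 and 43.3% in both. With 9 summits these shares were not compared by a test. A promoter summit in either replicate list was present at 14 of the 33 genes, in replicate 1 alone at 8, in replicate 2 alone at 3. The same split over all genes is not given here, so the 8 and 3 have no background beside them. The replicates matched at 21.4% of those 14 genes and at 32.2% of the 7951 genes with a summit in either list. In all, 19 of the 33 genes (57.6%) had no promoter summit in any of the lists, close to the 59.6% of all genes.

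The signals of the 9 pooled promoter summits ran from 29.9 to 97.9 with a median of 37.2, and the SD was 26.1. The median of the strongest promoter summit over the 4688 genes with a pooled promoter summit was 40.7. Between dyf-3 at 90.8 and ift-81 at 48.8 lay a gap that spans the lowest IDR-thresholded signal of 77.4, and the other 6 summits sat between 29.9 and 38.3. The pooled list ran down to a signal of 28.4 with a median of 35.9 over its peaks. Of the 9 summits, 6 were in its upper 7484 peaks by signal. Over all genes, 3040 of the 4688 with a pooled promoter summit had one in that upper part.

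**Figure D4:**
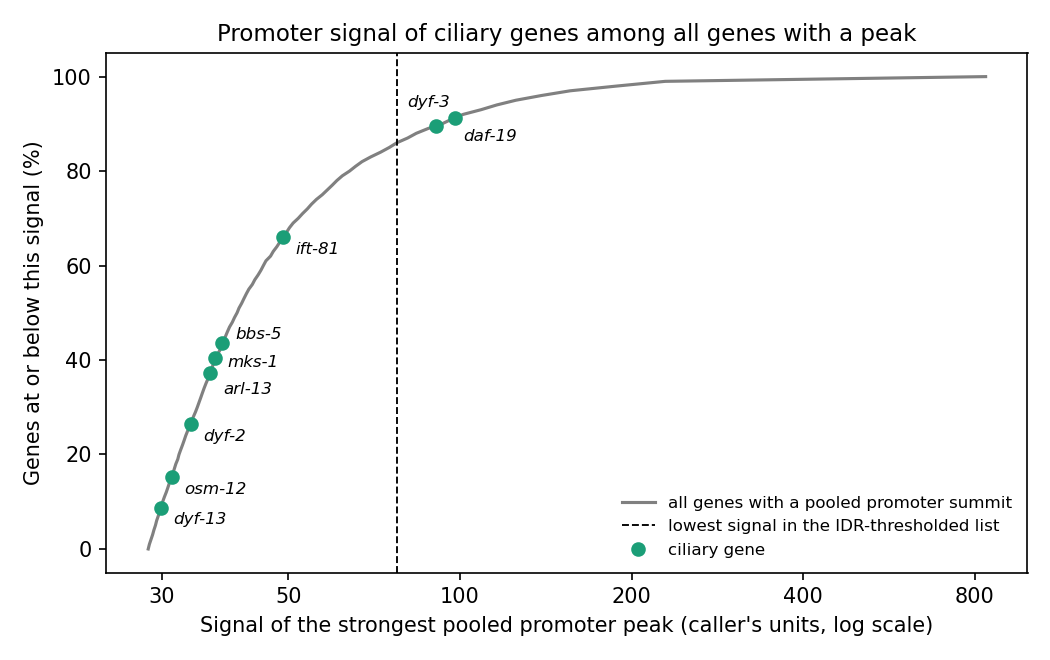
The line gives the percentage of genes (y) whose strongest pooled promoter peak is at or below a signal (x, log scale, units of the peak caller), over the 4688 genes with such a peak, and the points are the 9 ciliary genes. The daf-19 and dyf-3 points, at 97.9 and 90.8, lie right of the dashed line at 77.4, the lowest signal of the IDR-thresholded list, and the other 7 lie left of it.

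The X-box, the motif that DAF-19 reads, was present at more of these promoters than a ZTF-16 summit was. It is a 14-base near-palindrome, and matches to its consensus on either strand were counted over a stretch that begins 250 bp before the 5' end and stops 50 bp after it. Of the 33 promoters 17 (51.5%) held a match, beside 0.466% of all promoters, or 93 of 19973. Some of these genes were first found through their X-box, and how far the choice of genes accounts for this share was not tested. By role, the match was present at daf-19, at 8 of 12 IFT-B genes (che-2, che-13, osm-5, osm-6, dyf-3, dyf-13, ift-74 and ifta-2), at 5 of 6 BBSome genes (bbs-1, bbs-2, bbs-8, bbs-9 and osm-12), at mks-6, and at both dyf-5 and arl-13. It was absent from that stretch at the 3 motor genes and the 3 IFT-A genes, although xbx-1 had a match centred 44 bp downstream that ran past its end. The BBSome gene bbs-5 had a match 66 bp downstream, so the wider promoter window held a match at 19 of the 33.

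The sites below, from the RefSeq sequence of WBcel235, let the X-boxes of genes with a ZTF-16 summit be compared with those of genes without one. Each is read on the gene's strand with the 14 bases of the X-box in capitals and 8 bases on either side, and the coordinates are those of the capitals. The first 5 genes had a pooled promoter summit and the last 5 had none.
daf-19 (chrII:10169417-10169430, minus strand, 77 bp upstream): caattttgGTTTCCATGGAAACtacttcca
dyf-3 (chrIV:3399198-3399211, minus strand, 27 bp downstream): tgcagggaGTTTCTATGGGAACggaggaaa
bbs-5 (chrIII:10261710-10261723, minus strand, 66 bp downstream): taccaccgGTCTCCATGGCAACtctgctca
osm-12 (chrIII:12202544-12202557, minus strand, 13 bp upstream): cagctcatGTTGCCATAGTAACtcgacaac
dyf-13 (chrII:7171361-7171374, minus strand, 12 bp upstream): gcattcaaGTCTCCATAGCAACacgtcaag
xbx-1 (chrV:14980275-14980288, plus strand, 44 bp downstream): gaacgcccGTTTCCATGGTAACcgtcattt
osm-5 (chrX:2984163-2984176, plus strand, 94 bp upstream): cttacataGTTACTATGGCAACgctccgct
osm-6 (chrV:11927493-11927506, minus strand, 53 bp upstream): atccacatGTTACCATAGTAACcactcatt
ift-74 (chrII:6679970-6679983, plus strand, 48 bp upstream): tattacatGTTTCCATGGAAACggtgttcg
bbs-8 (chrV:6765088-6765101, minus strand, 22 bp upstream): cgtgccctGTACCCATGGCAACgacacgtc
The daf-19 and ift-74 sites have the same 14 bases, and ift-74 had no ZTF-16 summit in any list.

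Most of the ZTF-16 summits at X-box promoters lay away from the motif. The pooled summit lay 159 bp from the X-box at daf-19, 93 bp at dyf-3, 104 bp at osm-12, 100 bp at arl-13 and 495 bp at dyf-13. The peaks themselves are wide, with a median of 440 bp. At daf-19, dyf-3, osm-12 and arl-13 the X-box lay inside the called pooled peak, and at dyf-13 it lay outside. The exception was bbs-5, where the pooled summit lay 6 bp from the X-box, with the signal of 38.3 and the partner in replicate 1 alone given above. Over all lists, 2 of the 822 IDR-thresholded summits (0.243%) and 9 of the other 14146 pooled summits (0.0636%) had an X-box within 50 bp, and those 2 lay nearest to the 5' ends of oxi-1 and npr-13. Among the 17 genes with an X-box, 2 had an IDR-thresholded and 5 a pooled promoter summit. Among the 16 without, the numbers were 0 and 4. Over all 93 genes with an X-box promoter, 2 (2.15%) had an IDR-thresholded promoter summit, which were daf-19 and dyf-3, and 22.6% had a pooled one. Over the genes without an X-box the shares were 3.30% and 23.5%.

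The letters GCGC, a short motif common at the strong summits, were found in 1 of the 2 strong ciliary sites. Within 50 bp of the summit GCGC occurred at 50.6% of the IDR-thresholded peaks, at 13.7% of stretches of the same length 200 bp to one side, and at 18.5% of the other pooled peaks. GCGC reads the same on both strands. Of the 9 pooled promoter summits at ciliary genes, 2 had it, and these were the summits of dyf-3 and ift-81 shown above. The window at daf-19 had none. In the promoter sequences, 11 of the 33 ciliary genes (33.3%) and 28.7% of all genes held it. GC content of the 101 bases was 55.4% at daf-19, 52.5% at dyf-3 and 55.4% at ift-81, and the mean over IDR-thresholded peaks was 48.8% with an SD of 8.07. The mean was 36.7% in the stretches to one side and 40.1% over the other pooled peaks. The GCGC shares thus come from sequences of unlike GC content, and how far this accounts for them was not tested.

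In the gene bodies, 0 of the 33 genes had an IDR-thresholded summit, beside 1.05% of all genes. A count of 0 of 33 allows a share of up to 9.09% by the limit of 3 counts, or 10.4% by the Wilson interval, so a share like the background was not detectable with this number of genes. A pooled summit lay in the body of 9 genes (27.3%), beside 24.1% of all genes. Replicate 1 had a body summit at 17 genes (51.5%, interval 35.2% to 67.5%), beside 32.9% of all genes, which lies below that interval. Replicate 2 had one at 11 genes (33.3%), beside 29.3%. Matched body summits of both replicates were present at 3 genes (9.09%), which were ift-81, osm-12 and mks-1, beside 11.2% of all genes. The ciliary genes are long, with a median of 5.13 kb (1.23 to 19.7 kb) against 2.03 kb for all genes. Per 100 kb of gene body they had 6.00 pooled summits against 13.6 over all genes, 14.5 against 20.4 in replicate 1 and 7.50 against 16.99 in replicate 2. Counted by length, the listed summits were thus fewer than in all genes in each relaxed list, also in replicate 1, where the share of genes was higher. These rates rest on 12 pooled summits, 29 of replicate 1 and 15 of replicate 2 in 200 kb of gene body. They have no interval, and the difference was not tested.

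**Figure D5:**
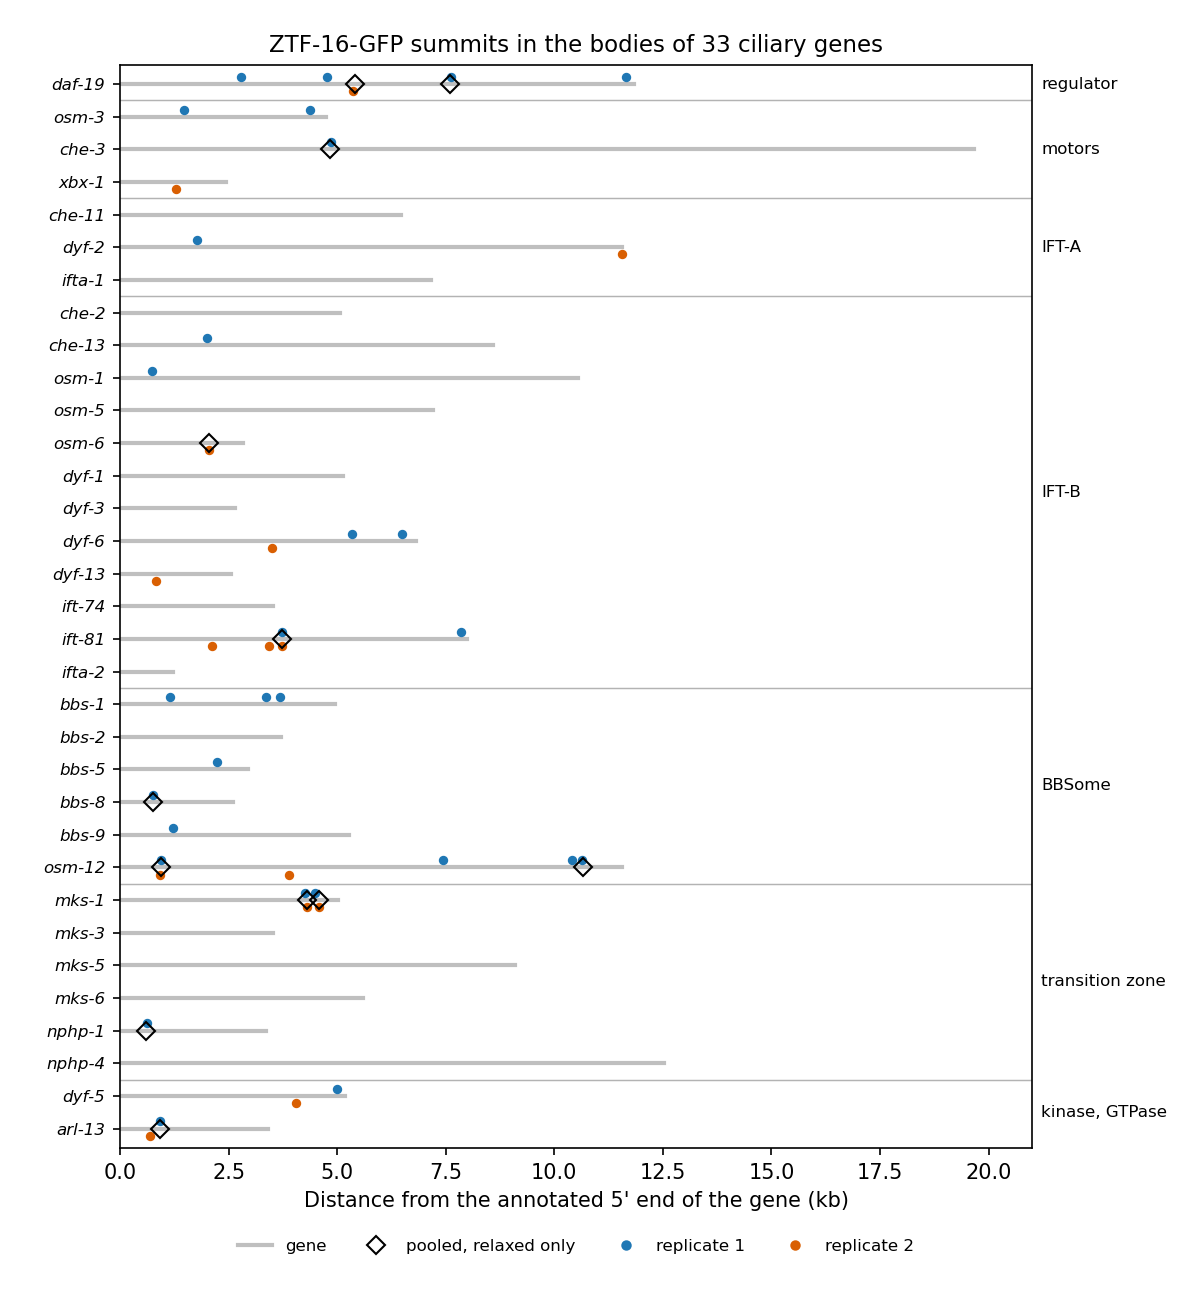
Each row is a ciliary gene drawn to its length in kb from the annotated 5' end (grey bar), with open diamonds for pooled summits and blue and orange points for summits of replicate 1 and replicate 2 in the gene body. No filled diamond of the IDR-thresholded list is present, 9 genes have an open diamond, and both diamonds at mks-1 have partners in both replicates.

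The strongest body summit was in mks-1 (WBGene00020100, chrIII:3186280-3191307, plus strand), which encodes a transition zone protein related to a human Meckel syndrome protein. It lay 4299 bp into the gene, in an intron, with a pooled signal of 67.5 at rank 1104. It was thus outside the 822 peaks of the IDR-thresholded list, whose lowest signal was 77.4. Replicate 1 had it at rank 2826 with a signal of 27.9, and replicate 2 at rank 990 with a signal of 37.5. A second summit in the same gene, 274 bp further on, had a pooled signal of 34.4 at rank 8598, and ranked 9710 in replicate 1 and 7669 in replicate 2. Both also lay in the promoter window of the neighbouring gene R148.8. Each of them lies on or close beside a stretch with the letters TGGCNNAGTGG, a form of the A box of tRNA genes. The stretch at the stronger one also holds GGTTCGANNCC, the B box. The A and B boxes are the internal promoter elements at which RNA polymerase III factors bind in tRNA genes. The 65 bases from the A box on (chrIII:3190576-3190640 and chrIII:3190870-3190934, plus strand) are shown with A and B box matches in capitals.
mks-1 stronger site: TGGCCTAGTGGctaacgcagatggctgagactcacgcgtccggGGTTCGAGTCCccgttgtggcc
mks-1 weaker site: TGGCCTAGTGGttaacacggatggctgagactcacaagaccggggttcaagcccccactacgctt
The stretches share 50 of 65 bases (76.9%), and the A boxes are identical. Counted from the first base of the A box, with the stronger site's base first, the B box of the weaker site differs by G49A and T52C. The stronger summit falls on base 4 of its stretch, and the weaker one, at chrIII:3190853, falls before the first base of its own. The annotation has no tRNA gene at either stretch: the nearest tRNA gene is 4860 bp from the stronger summit, and the tRNA pseudogenes R148.t3 and R148.t2 lie 837 and 3518 bp from it. Within 50 bp of the summit, the B box occurred at 7.54% of IDR-thresholded peaks and 0.488% of other pooled peaks, and the A box at 3.41% and 0.276%, both searched on both strands. Of all promoters, 0.165% held the B box and 0.150% the A box.

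The remaining body summits were weak. At osm-6, an IFT-B gene, an intronic summit 2052 bp into the gene had a pooled signal of 39.5 at rank 5463 and a partner in replicate 2 alone, at rank 1858. The others were at che-3, ift-81, bbs-8, osm-12, nphp-1, arl-13 and daf-19, with pooled signals from 28.7 to 36.6. Of the 12 pooled body summits, 10 had a partner in replicate 1, 6 in replicate 2 and 4 in both. The genes osm-3, xbx-1, dyf-2, che-13, osm-1, dyf-6, dyf-13, bbs-1, bbs-5, bbs-9 and dyf-5 had body summits in a replicate list and none in the pooled list. No summit in promoter or body was present in any list at 10 genes, che-11, ifta-1, che-2, osm-5, dyf-1, ift-74, ifta-2, bbs-2, mks-3 and nphp-4. The share of all genes without a summit in promoter or body is not given here, so these 10 cannot be set against a background.

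For the 31 genes other than daf-19 and dyf-3, the nearest IDR-thresholded summit lay nearer to the 5' end of another gene. The median distance from a ciliary 5' end to the nearest IDR-thresholded summit was 34.1 kb, against 48.6 kb over all genes, and the range ran from 66 bp at dyf-3 to 249 kb at osm-3. Just outside the promoter window, a summit with a signal of 118.8 at rank 328 lay 1334 bp upstream of nphp-4 and 809 bp upstream of hmp-1, the alpha-catenin gene, whose 5' end was nearest. A summit with a signal of 191 at rank 108 lay 1663 bp upstream of che-13, within 200 bp of a small RNA gene, and just past the 3' end of nlp-4, a neuropeptide gene whose 5' end lay 806 bp away. With a window from 2000 bp upstream these count too, so that 4 of the 33 genes had an IDR-thresholded summit, beside 4.29% of all genes.

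A further 53 ciliary and centriolar genes, chosen by name with earlier results known, had IDR-thresholded promoter summits at 3 genes (5.66%, interval 1.94% to 15.4%), beside the same 3.29% of all genes. They were sas-4, which builds centrioles, with a pooled signal of 99.7 at rank 485, tmem-107, a transition zone gene, with 86.5 at rank 657, and hyls-1, a centriole gene needed for cilia, with 80.3 at rank 764. Each of these summits also lay in the promoter window of a neighbour, which was F10E9.11 (6 bp upstream of its 5' end), rps-26 and hpo-9 in that order. The next in signal were sas-6 at 73.3 and mksr-1 at 54.2, both under the IDR-thresholded limit. In their bodies 3 of the 53 (5.66%, interval 1.94% to 15.4%) had an IDR-thresholded summit, beside 1.05% of all genes. They were osm-9, a sensory channel gene, with 98.9, unc-119 with 79.4 and gasr-8 with 79.0. The summits in osm-9 and gasr-8, and that at the tmem-107 promoter, lay within 200 bp of a small RNA gene. The strain carries the tm4063 allele of unc-119, and transgenes of this kind often carry a working unc-119 copy, so summits there cannot be assigned to the native gene. A pooled promoter summit was present at 22 of the 53 (41.5%, interval 29.3% to 54.9%), beside 23.5% of all genes. The replicates matched at 13 (24.5%, interval 14.9% to 37.6%), beside 12.8% of all genes. The corresponding counts above were 9 and 3 of the 33 genes, and the lists were not compared by a test.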

How the data were processed

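The members and gene lists were chosen with earlier results of these data known. The authors deposited ChIP-seq peak lists in narrowPeak format for builds ce11 and ce10, per their deposited notes. The 4 ce10 lists were not used. For each relaxed list the notes name 1 control file, which the replicates share. The sources used here do not give the aligner, peak caller, filters or IDR threshold. The signal values and the −log10 q-values are the deposited output of the authors' caller, 1 value per peak. The highest −log10 q-value is shared by 849 pooled peaks, so peaks were ranked by signal. The median peak width was 440 bp in the pooled and IDR-thresholded lists, which limits the precision of positions. The lists hold no read numbers, so depth is unknown.

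Summits were read as 1-based and assigned to every protein-coding gene of Ensembl release 115 (WBcel235, the ce11 assembly) whose promoter window or body held them, so a summit can count for several genes. Every member is named, in full when it had an IDR-thresholded summit or was among the 12 with the highest pooled promoter signal (9 had a pooled promoter summit). Body summits and non-members given in full beyond neighbours that share a summit were chosen after their values were seen. Of 55 further ciliary names, 53 were protein-coding genes in the annotation. Shares over the members are set beside the same share over all genes, with no test. Replicate summits within 200 bp were taken as matched. The X-box was searched by its consensus, and GCGC, A box and B box by the letters given, in the RefSeq sequence of the same assembly. Sequences on chromosome I are not printed. Alternatives varied the window, the assignment rule, the signal range and the replicate used. The counting steps were tested on simulated summits. Python 3.11.15, numpy 2.4.6, pandas 2.3.3, scipy 1.17.1 and matplotlib 3.10.9 were used.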

Additional observations from a re-analysis of the deposited data

How the results depend on the processing

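No paired analysis was possible because the series holds 1 group and no comparison between groups. Of 37 alternatives over 8 results, 30 stayed within 1.5 times the reported count or within 1 SD of the reported median. That SD, 26.1 over genes, is wide beside the median of 37.2, so the second limit could hardly be passed. The median itself was 37.8 to 38.3 under its alternatives. The number of ciliary genes with an IDR-thresholded promoter summit, reported as 2, was 4 with a window from 2000 bp upstream and 0 in the stronger 411 peaks. It ran from 0 to 2 when a replicate was left out and the 822 strongest peaks of the other were used, with 0 on replicate 1 alone. The number with a pooled promoter summit, reported as 9, ran from 6 to 11 on a single replicate, and was 2 at a q-value of 0.05 or less, an alternative added after seeing the data. The number with a pooled body summit, also 9, was 3 in the stronger 7484 pooled peaks, 1 at a q-value of 0.05 or less (added likewise), and 11 to 17 on a single replicate. At that q-value 1521 of the 14968 pooled peaks remained. The share of all genes with such a body summit was not counted, so the 1 has no background beside it. Over all genes, the share with a pooled body summit was 24.1%, and 12.6% in the stronger 7484 peaks. The share with an IDR-thresholded promoter summit was 3.29%, and 1.67% in the stronger 411. The cause of these moves was not tested. Leaving out a replicate gave 0 to 0 genes with an IDR-thresholded body summit, and 2 to 3 further ciliary genes with an IDR-thresholded promoter summit. The X-box count was 19 with a looser consensus and 19 in the wider window, against 17. Unknown depth, 2 replicates and whole embryos limit what a missing summit shows.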
